A study of Mus musculus with 2 samples.

Results

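Single-cell RNA-seq was compared between ear skin of wild-type (WT) BALB/c mice on day 3 and on day 5 of IgE-mediated chronic allergic inflammation (IgE-CAI), over all cells other than the monocyte-macrophage lineage (Mo-Mac). The members were cells whose highest WT hashtag, after adding 1 read and dividing by its total, was at least 3 times the next with 10 or more hashtag reads. They also had at most 20% mitochondrial reads and at least 200 genes. They numbered 1657 cells, with 1070 on day 3 and 587 on day 5, among 2580 WT cells and 7118 cells of both genotypes. Mice had received 300 µg of anti-TNP IgE intravenously and, on the following day, 10 µg of TNP-conjugated ovalbumin intradermally in the ear. Ccr2-/- mice, which lack the chemokine receptor that brings inflammatory monocytes into tissue, went through the same treatment and were used only as side values. All 4 hashtags were read in 1 cDNA library, and each genotype and day was 1 pool of cells, so no test between days was possible. The number of mice behind each pool was not given in the sources used here. "Higher" and "lower" therefore describe these 2 pools, and day and pool cannot be told apart.

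IgE-CAI is a late-phase skin allergy that depends on basophils, which are armed by IgE and release interleukin-4 on meeting antigen. Dermal fibroblasts, vessels and cartilage-lining cells respond to such inflammation by releasing chemokines, acute-phase proteins and matrix. Interferons switch on a further set of genes in almost any cell type, with type I interferons driving antiviral genes such as Ifit1 and Isg15, and interferon-gamma from T and NK cells driving guanylate-binding proteins (Gbp) and immunity-related GTPases such as Iigp1.

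The WT day 3 pool held 89492293 reads with a median of 39778 reads and 3107 genes per cell, and the WT day 5 pool held 68064673 reads with a median of 48232 reads and 3483 genes. The reads carried no molecular identifiers, so the exact intervals given here cover counting error only. Cells were grouped into 22 clusters and named "X-like" from marker genes, and 4 clusters remained unnamed. On day 3 the summed fibroblast markers were at 73692 CPM (reads per 1000000 reads of the type and pool) in fibroblast-like cells, the neutrophil markers at 70860 CPM in neutrophil-like cells and the mast cell markers at 96419 CPM in mast cell-like cells. Basophil-like cells held basophil markers at 8058 CPM beside fibroblast markers at 16254 CPM on day 3. Their 2 day 5 cells held basophil markers at 2557 CPM beside monocyte-macrophage markers at 5829 CPM and mast cell markers at 4946 CPM. Dendritic cell-like cells held dendritic cell markers at 1807 CPM beside monocyte-macrophage markers at 2489 CPM on day 3, so these names rest on less exclusive markers. The blood endothelial-like cluster also held pericyte or smooth muscle markers, at 4494 CPM on day 3 and 3631 CPM on day 5. On day 3, fibroblast markers reached 42848 CPM in lymphatic endothelial-like and 10004 CPM in T cell-like cells, against 1515 CPM and 1103 CPM on day 5. Without cells over 3 times the median reads of their type and pool they were at 5694 and 3008 CPM in the lymphatic cells and at 2067 and 1218 CPM in the T cells.

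Neutrophil-like and basophil-like cells had the largest ratios of share between the days among the named types with cells on both days. Neutrophil-like cells, the first leukocytes to enter inflamed skin, were 52 of 1543 cells on day 3, or 3.37% (exact 95% binomial interval, Clopper-Pearson, 2.53 to 4.4), and 6 of 1037 on day 5, or 0.579% (0.213 to 1.26). Basophil-like cells were 27 cells, or 1.75% (1.16 to 2.54), on day 3 and 2 cells, or 0.193% (0.0234 to 0.695), on day 5, a share 9.07-fold lower. The cluster led by Retnlg, Alox15 and Ccr3, which stayed unnamed because only 2 eosinophil markers were met, went from 59 cells, or 3.82% (2.92 to 4.90), to 19 cells, or 1.83% (1.11 to 2.85). In these 3 groups the intervals of the days did not overlap. Mast cell-like cells, the resident cells that carry IgE, were 10 cells on each day, with shares of 0.648% and 0.964% and overlapping intervals.

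Lymphocytes formed a smaller part of the day 5 pool as well. T cell-like cells were 67 cells on day 3, or 4.34% (3.38 to 5.48), and 21 cells on day 5, or 2.03% (1.26 to 3.08), without overlap. NK or ILC-like cells, the cytotoxic and innate lymphoid cells, were at 3.89% with 60 cells and at 2.80% with 29 cells, and their intervals overlapped. Dendritic cell-like cells, which carry antigen to T cells, were at 6.03% with 93 cells and at 6.94% with 72 cells, also with overlap. Named leukocyte types other than Mo-Mac came to 20.2% (18.2 to 22.3) of all cells on day 3. On day 5 they came to 13.5% (11.5 to 15.7). This sum leaves out the unnamed clusters, such as the one led by Retnlg. Mo-Mac-like cells were 30.7% and 43.4%. A share can be lower because other cells were more numerous, so the denominator without Mo-Mac-like cells was also used. Over it, neutrophil-like cells were at 4.86% and 1.02% and basophil-like cells at 2.52% and 0.341%, still without overlap. T cell-like cells, at 6.26% and 3.58%, and the cluster led by Retnlg, at 5.51% and 3.24%, had overlapping intervals over that denominator.

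Among structural cells, blood endothelial-like cells were at 7% (5.78 to 8.39) on day 3 and 3.66% (2.61 to 5.00) on day 5, with 108 and 38 cells. At a clustering resolution of 2, which split off the pericytes, the day 3 share was 5.44%. Keratinocyte-like cells, from the epidermis, were at 1.88% (1.26 to 2.69) with 29 cells and at 0.482% (0.157 to 1.12) with 5 cells. Fibroblast-like cells were at 20.8% (18.8 to 22.9) with 321 cells and at 25.0% (22.4 to 27.7) with 259 cells, and their intervals overlapped. Without Mo-Mac-like cells in the denominator they were at 30% (27.3 to 32.8) and 44.1% (40.1 to 48.2), without overlap, while blood endothelial-like cells, at 10.1% and 6.47%, and keratinocyte-like cells, at 2.71% and 0.852%, then overlapped. A cluster of low read number led by Saa3, Cxcl5 and Cyp1b1 stayed unnamed and was at 6.80% and 5.30%. Perichondrial-like cells, which line the ear cartilage, were at 5.44% and 3.38%, and lymphatic endothelial-like cells at 2.01% and 2.12%, with overlap in both. The share of a structural cell type also depends on how easily enzyme digestion frees it from the ear, which was not tested.

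**Figure D1:**
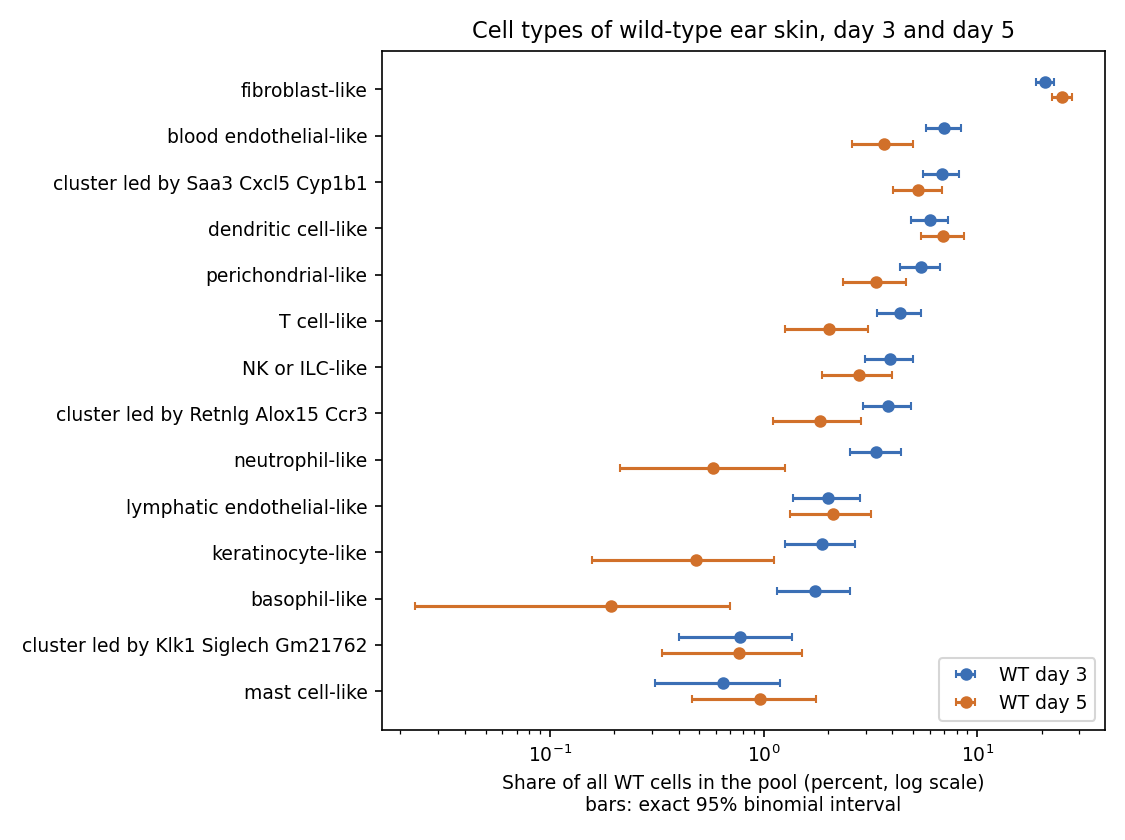
Share of all cells of the pool (percent, log scale) for each WT cell type or cluster with 10 or more cells on day 3, other than Mo-Mac-like cells, on day 3 (blue) and day 5 (orange), with exact 95% binomial intervals as bars. Neutrophil-like, basophil-like, keratinocyte-like, T cell-like and blood endothelial-like cells and the cluster led by Retnlg, Alox15 and Ccr3 sit lower on day 5 with no overlap, while lymphatic endothelial-like, mast cell-like and dendritic cell-like cells overlap.

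Gene levels were compared in the 7 cell types that had 15 or more cells in both pools. A gene is called tested, meaning compared against the fold and not by a statistical test, if it reached 20 CPM and was read in 20% of cells, and in at least 5, of 1 pool. It was called past the fold if the log2 ratio of day 5 over day 3, with 1 CPM added to both, was at least 1 in size by summed reads and by the mean over cells. Genes near these limits could be tested through their higher pool alone, so counts and medians of tested genes favour large ratios. The share of genes past the fold was greater in types with few cells. It was 0.923% of 6826 genes in fibroblast-like cells, with 259 cells in the smaller pool, and 23.6% of 3356 genes in T cell-like cells, with 21 cells. In simulated data of the size of the T cell-like pools, with an assumed spread between cells, many unchanged genes also passed the fold. How much of the share in the measured cells came from the number of cells was not tested. Fewer cells of a subtype and less RNA per cell cannot be told apart in these sums.

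**Figure D2:**
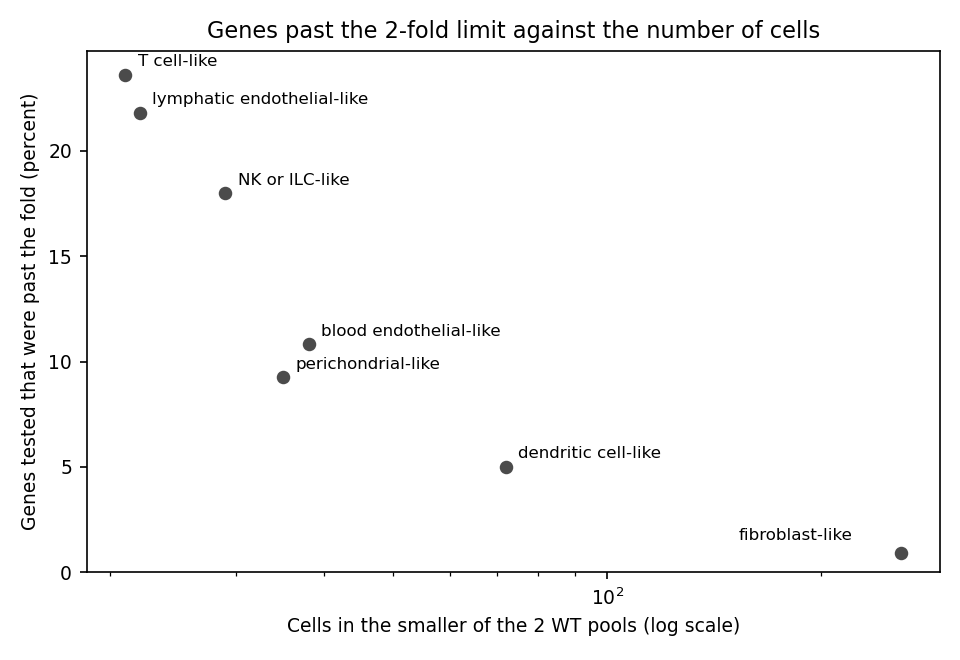
Percent of tested genes past the fold in either direction against the number of cells in the smaller of the 2 WT pools (log scale), 1 point for each of the 7 cell types. The share runs from 0.923% with 259 cells to 23.6% with 21 cells, so the counts of the small types are read against their own background.

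In fibroblast-like cells, interferon-driven genes and the chemokine Ccl19 were lower on day 5, and Angpt1, Mgp, Myoc and Sox4 were higher. Of 6826 genes tested, 45 were lower on day 5, which is 0.659%, and 18 were higher, which is 0.264%. The median log2 ratio over all tested genes was -0.03. After genes outside the naming rule were left aside, 24 lower and 9 higher genes qualified, and the 12 and 9 with the largest ratios are named.

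Of the 14 genes of the type I interferon-stimulated list, 5 were tested in fibroblast-like cells and all 5 were lower and past the fold, with a median log2 ratio of -1.69. Irf7, the transcription factor that amplifies the interferon response, was at 102 CPM (98.9 to 106) on day 3 and 17.4 CPM (15.9 to 19) on day 5. Bst2, the cell surface protein that tethers budding virus, was at 103 CPM and 31.2 CPM. Isg15, a ubiquitin-like modifier, was at 53.8 CPM and 12.4 CPM. Ifit1, which binds foreign RNA, was at 52 CPM and 22.9 CPM, and Oasl2, a relative of the oligoadenylate synthetases, at 34.7 CPM and 11 CPM. In all 5 the Poisson intervals of the days were apart. Irf7, Isg15 and Oasl2 reached 20 CPM on day 3 only, so they were tested through the pool where they were high. The count and the median of the tested members therefore lean to lower. Of these 5, Oasl2 alone was among the 12 lower genes named by the rule. Over the other cells of the pool Oasl2 was at 27.4 and 16.5 CPM. The part of RNA from other cells in the 5 values was not tested. In the Ccr2-/- pools Irf7 was at 57.6 CPM on day 3 and 19.2 CPM on day 5 and Isg15 at 36.6 and 22.4 CPM. The other 9 members stayed under the limits for testing, and among them Ifit3 was at 33.6 CPM and 7.70 CPM and Ifit2 at 13.9 CPM and 13.3 CPM.

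Upstream sequences of these genes were examined because interferon-stimulated genes share a recognised element, the ISRE, whose core was taken as GAAA, any 2 bases and GAAA again, or TTTC, any 2 bases and TTTC on the other strand. All 5 genes had an entry among the RefSeq promoter sequences (GRCm38.p6), and the 250 bases before the start were searched on both strands. Of 27025 genes with such an entry, 3.46% held the core, and overlapping copies were counted. It was found for Ifit1, Isg15 and Bst2, and these letters were not in the window of Oasl2 or Irf7. The lines give 70 bases around the copy nearest the start, 5′ to 3′ on the strand of the gene, with each core in capitals.
Ifit1, chr19:34640774-34640843, plus strand: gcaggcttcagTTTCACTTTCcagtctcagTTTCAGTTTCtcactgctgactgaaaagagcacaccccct
Isg15, chr4:156200845-156200914, minus strand: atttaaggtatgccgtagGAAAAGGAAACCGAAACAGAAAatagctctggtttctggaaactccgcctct
Bst2, chr8:71537557-71537626, minus strand: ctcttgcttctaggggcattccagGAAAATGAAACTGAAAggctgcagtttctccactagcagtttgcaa
The nearest core ended 75 bases before the start in Ifit1, 56 in Isg15 and 114 in Bst2. Ifit1 held 2 separate copies, and Isg15 and Bst2 held 3 and 2 that run into each other. A match of letters is a description and does not show that a factor was bound.

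Of the 16 genes of the interferon-gamma list, 11 were tested in fibroblast-like cells, and 1, Iigp1, was past the fold, with a list median of -0.49. Iigp1, a GTPase that attacks the vacuoles of intracellular parasites, was at 147 CPM (143 to 151) on day 3 and 29.4 CPM (27.4 to 31.5) on day 5. Over the other cells of the pool Iigp1 was at 121 and 43.2 CPM. Psmb8, a subunit of the immunoproteasome, was at 95.4 and 35.9 CPM but missed the fold by the mean over cells. Irf1, an early target of interferon-gamma, was at 322 CPM and 377 CPM. Irgm1, a further GTPase of the list, was at 35 CPM and 32.6 CPM, so both stayed close to level.

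A chemokine and 2 acute-phase genes were also lower in fibroblast-like cells. Of 12 lymphocyte chemoattractants, 4 were tested and Ccl19 alone was past the fold, and none of the 4 neutrophil and 4 monocyte chemoattractants tested was. Ccl19, the chemokine that draws dendritic cells and naive T cells through the receptor CCR7, was at 206 CPM (201 to 211) on day 3 and 40.4 CPM (38.1 to 42.9) on day 5, a level 5.09-fold lower. No cell held more than 3.76% of its day 3 reads or 12.8% of its day 5 reads. Of the 11 acute-phase genes, 6 were tested and 2, Lcn2 and Hp, were lower past the fold, with a list median of -1.17. Lcn2, a binder of bacterial siderophores, was at 66.9 CPM and 21.6 CPM. Hp, the haemoglobin-binding haptoglobin, was at 93.1 CPM and 15.8 CPM, with 34.4% of the day 3 reads in 1 cell. Saa3, an acute-phase apolipoprotein, was at 3263 CPM and 835 CPM by summed reads, but its ratio by the mean over cells was -0.94, and 31.4% of the day 5 reads lay in 1 cell. Cxcl5, a neutrophil attractant, was at 970 and 452 CPM, and Il33, an alarmin for mast cells and type 2 lymphocytes, at 418 and 174 CPM, and both missed the fold by the mean over cells.

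Further lower genes in fibroblast-like cells had no common list. Fgf23, a hormone of phosphate balance, was at 82 CPM and 13.3 CPM, and 52.2% of its day 5 reads came from 1 cell. Chl1, an adhesion molecule of the L1 family, was at 294 CPM and 96.8 CPM, and Tgm2, a protein cross-linking transglutaminase, at 107 CPM and 33.8 CPM. Mlkl, the executioner of necroptosis, was at 33.4 CPM and 10.6 CPM. Mcoln2, an endolysosomal channel, was at 113 CPM and 29.1 CPM, Helb, a DNA helicase, at 21.3 CPM and 8.18 CPM, and the unnamed transcript CT868690.1 at 186 CPM and 33.8 CPM. Uhrf1, which maintains DNA methylation in dividing cells, was at 56.5 CPM and 20.6 CPM. Of 20 cell division genes, 11 were tested and Mcm2 and Rrm2 were lower past the fold, at 30.6 and 12.3 CPM and at 57.7 and 25.7 CPM. Mcm2 was past the fold in 6 of 10 alternatives, and Rrm2 and Uhrf1 in 5. Within the fibroblast clusters led by Reg1 and by Scara5, Rrm2 had ratios of -0.84 and -0.90, Mcm2 of -1.08 and -0.0061 and Uhrf1 of -1.21 and -0.027.

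The 9 genes higher on day 5 in fibroblast-like cells were about 2 to 3 times the day 3 level. Angpt1, the ligand of the endothelial receptor TIE2 that steadies vessels, was at 14.6 CPM (13.3 to 15.9) and 37.9 CPM (35.6 to 40.3). Mgp, an inhibitor of calcification, was at 228 CPM and 572 CPM, Myoc, the secreted glycoprotein myocilin, at 231 CPM and 559 CPM, and Lrrn4cl, a leucine-rich repeat membrane protein, at 92.4 CPM and 204 CPM. Sox4, a transcription factor of progenitor cells, was at 35.7 CPM and 86.3 CPM. Wnt2, a Wnt ligand, was at 11.5 CPM and 24.3 CPM, and Ecrg4, Plscr4 and Lvrn were at 28 and 68.3, 16.1 and 38.5, and 8.77 and 22.2 CPM. Il1rl1, the receptor for Il33, was at 59.2 CPM and 181 CPM by summed reads but missed the fold by the mean over cells, at 0.76. In the Ccr2-/- pools the log2 ratios of Myoc and Mgp were -0.84 and -0.47, against 1.27 and 1.32 in WT.

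**Figure D3:**
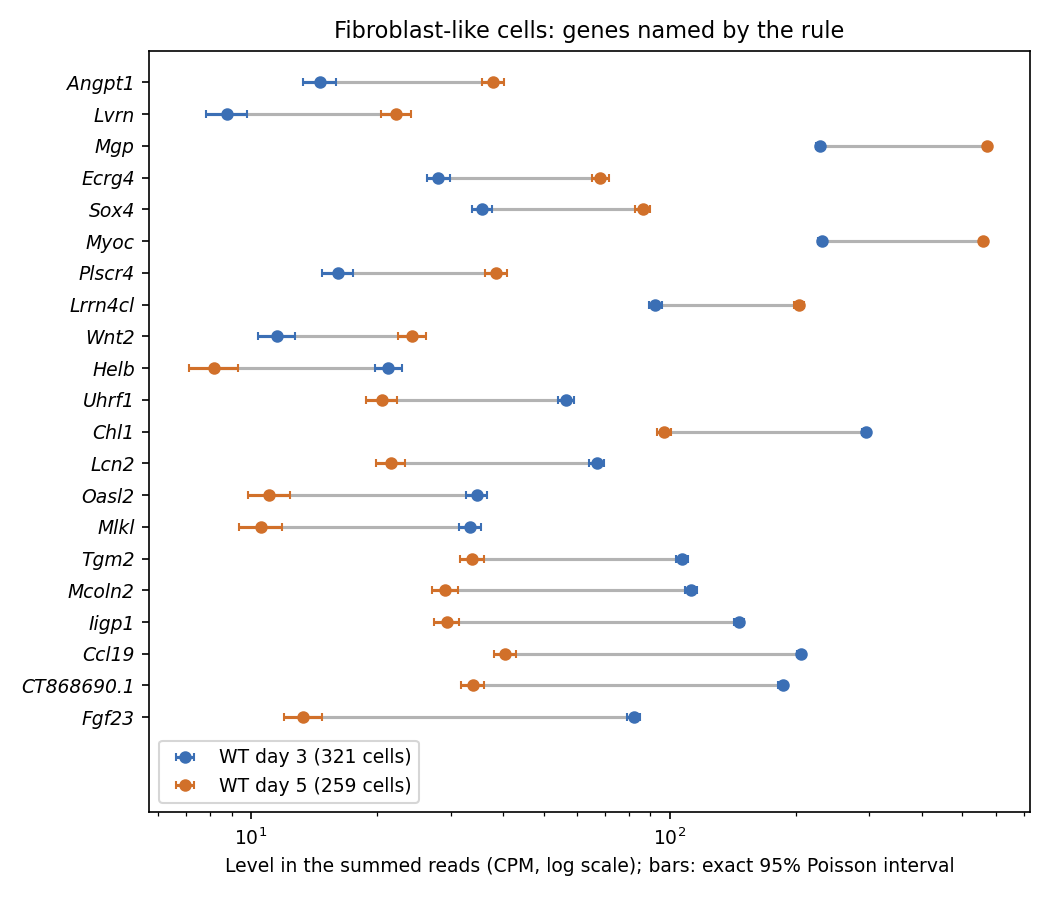
Level of each gene named by the rule in the summed reads of WT fibroblast-like cells (CPM, log scale) on day 3 (blue, 321 cells) and day 5 (orange, 259 cells), with exact 95% Poisson intervals as bars, ordered by the ratio. The upper 9 genes are higher on day 5 and the lower 12 are lower, with Fgf23 at 82 and 13.3 CPM at the bottom.

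Matrix genes of fibroblast-like cells stayed within the fold. None of the 17 tested collagens was past it in either direction, with a list median of 0.13, and Col1a1, a chain of type I collagen, was at 11698 CPM and 16951 CPM. The 12 matrix remodelling genes tested and the 13 fibrosis and TGF-beta response genes tested also had none past the fold, with medians of 0.34 and 0.16. Cthrc1, a secreted protein of activated fibroblasts, came nearest, at 176 CPM and 329 CPM. The complement, glycolysis, immediate early, and glucocorticoid and clock lists, with 9, 17, 13 and 6 genes tested, had none either.

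MHC class II genes in fibroblast-like cells rested on single cells. H2-Aa, H2-Ab1 and H2-Eb1 were past the fold and higher on day 5, at 17.3 and 95.8, 18.7 and 90.6, and 10.8 and 51.5 CPM, among 5 of 11 members tested. On day 5, 1 cell held 50.8% of the H2-Aa reads, and other cells of the pool together stood at 3047 CPM. When each cell was thinned to 10000 reads, H2-Aa was read in 12.3% of day 3 and 12.5% of day 5 fibroblast-like cells. The summed Mo-Mac markers in these cells were at 235 CPM on day 3 and 301 CPM on day 5, and the dendritic cell markers at 127 and 145 CPM. The part of RNA from other cells in this result was not tested.

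Fibroblast-like cells fell into 2 clusters that differed in depth and state. The cluster led by Reg1, Reg3g and Saa3, with a median of 185020 reads over all pools, held 111 cells on day 3, or 34.6% (29.4 to 40.1), and 61 on day 5, or 23.6% (18.5 to 29.2). The cluster led by Scara5 and Tmem100 held 210 and 198. Since the deeper cluster gives more reads per cell and its share of cells was lower on day 5, the genes were also compared within each cluster. Ccl19 was at 242 and 39 CPM in the cluster led by Reg1 and at 149 and 41.7 CPM in the other, and Irf7 at 140 and 23.8 CPM and at 43.8 and 11.9 CPM. Iigp1, Fgf23, Mlkl and Lcn2 were likewise lower on day 5 in both, with log2 ratios from -2.24 to -1.24 by summed reads. By the mean over cells Lcn2 was at -0.58 in the cluster led by Reg1, and Fgf23 was at 5.64 and 0.821 CPM in the cluster led by Scara5.

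Other genes had unlike ratios in the clusters. Isg15 was at 78.2 and 11 CPM in the cluster led by Reg1 and at 15.6 and 13.5 CPM in the cluster led by Scara5, and Oasl2 at 47.7 and 8.30 CPM and at 14.2 and 13.4 CPM. Hp and Mcoln2 had ratios of -2.43 and -1.85 in the first and 0.42 and 0.46 in the second. By summed reads Chl1 and Tgm2 had ratios of -1.31 and -1.83 in the first and -0.66 and -0.49 in the second. Saa3 went opposite ways, at 5293 and 1426 CPM in the first cluster and 85.3 and 329 CPM in the second. Wnt2, with ratios of -0.28 and 1.13, and Myoc, with 0.03 and 0.96, were higher in the cluster led by Scara5, whereas Ecrg4 and Sox4, with 1.77 and 1.58 in the first, leaned to the cluster led by Reg1. Mgp had ratios of 0.80 and 1.07 by summed reads and of 0.57 and 0.93 by the mean over cells. Neither Mgp nor Myoc was past the fold by both measures within a cluster. The class II genes H2-Aa, H2-Ab1 and H2-Eb1 were higher in the cluster led by Reg1, at 16.3 and 189 CPM for H2-Aa, and had ratios of -0.25, -0.61 and -0.79 in the other. The difference between the clusters was not tested.

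**Figure D4:**
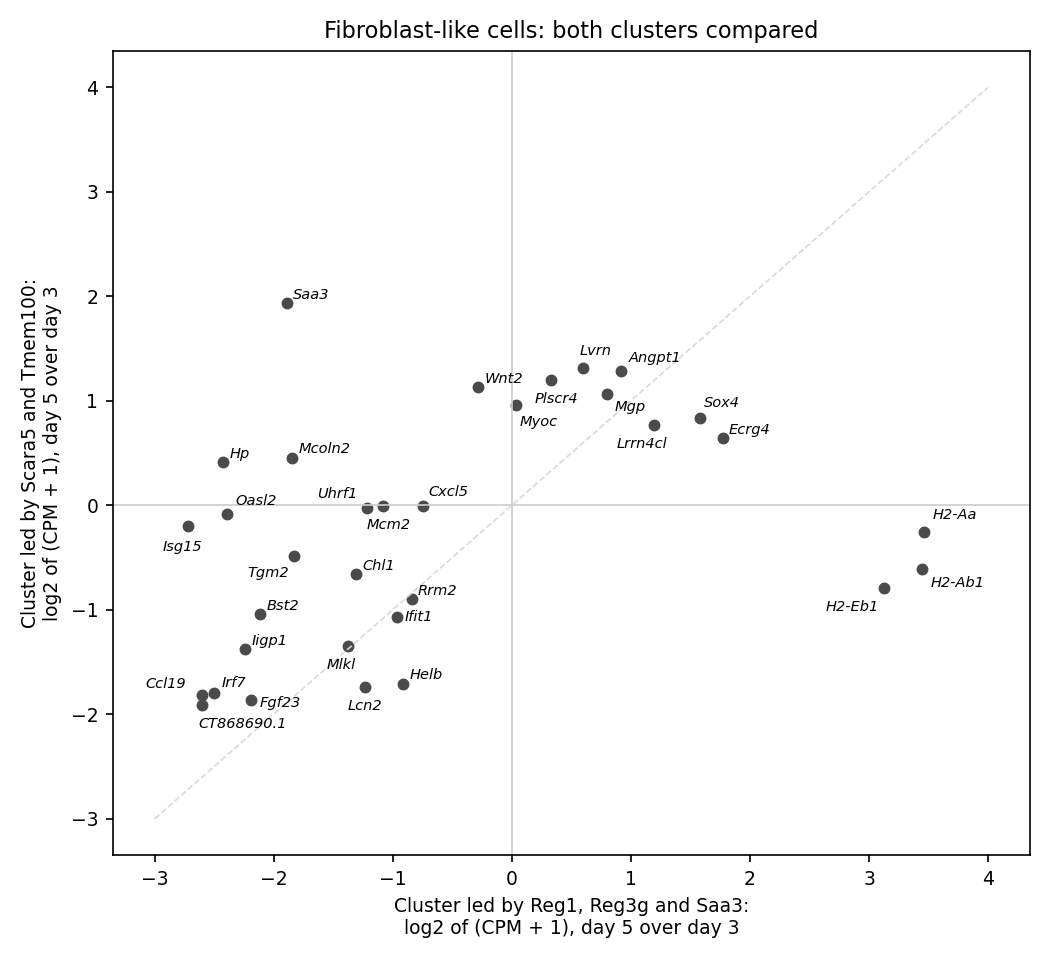
Log2 ratio of day 5 over day 3, with 1 CPM added, in the fibroblast cluster led by Reg1, Reg3g and Saa3 (x axis) and in the one led by Scara5 and Tmem100 (y axis), for the genes named by the rule and for list members described in the text, 1 point a gene, with the dashed line at equal ratios. Ccl19, Irf7, Fgf23 and Iigp1 lie low on both axes, the class II genes lie at 3.13 to 3.46 on the x axis and below 0 on the y axis, and Saa3 lies at -1.89 and 1.94.

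Interferon-driven genes were then followed across the 7 types by the summed reads of each list. The 14 type I interferon-stimulated genes together were lower on day 5 in all 7 types, by summed reads and by the mean over cells. In fibroblast-like cells they summed to 464 CPM and 137 CPM, 3.38-fold lower. In T cell-like cells they were at 399 and 127 CPM by summed reads and at 307 and 205 CPM by the mean over cells. They were in perichondrial-like cells at 245 and 96.8 CPM, and in lymphatic endothelial-like cells at 386 and 177 CPM. In dendritic cell-like cells they were at 471 and 286 CPM and in NK or ILC-like cells at 324 and 199 CPM. Blood endothelial-like cells had the highest level and the smallest ratio, with 705 CPM (684 to 727) and 656 CPM (620 to 694), and these intervals overlapped. Single members outside fibroblast-like cells were mostly in neither direction, and none was tested in T cell-like cells. In neither direction were 4 of 5 tested in blood endothelial-like, 2 of 3 in lymphatic endothelial-like and 1 of 2 in perichondrial-like cells. So were the 2 tested in dendritic cell-like and the 1 in NK or ILC-like cells. Irf7 was lower past the fold in lymphatic endothelial-like cells, at 63.2 and 4.68 CPM, and in perichondrial-like cells, at 38 and 12.2 CPM. Rsad2, an antiviral enzyme, was higher in blood endothelial-like cells, at 11.8 and 58.9 CPM. Without the cells of very high read number the ratio of day 3 over day 5 ranged from 1.25 in blood endothelial-like to 4.2 in lymphatic endothelial-like cells.

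The 16 interferon-gamma response genes were lower on day 5 in 6 types by summed reads. T cell-like cells differed most, at 2574 CPM (2489 to 2660) and 748 CPM (670 to 833), 3.44-fold lower. Perichondrial-like cells were at 795 and 409 CPM, lymphatic endothelial-like cells at 1596 and 1004 CPM, fibroblast-like cells at 984 and 688 CPM and blood endothelial-like cells at 3162 and 2648 CPM. NK or ILC-like cells were at 1486 and 1448 CPM, which is close to level. Dendritic cell-like cells were at 1200 and 1324 CPM. In the Ccr2-/- pools the T cell-like cells were at 2719 CPM on day 3 and 2595 CPM on day 5. The perichondrial-like cells were at 756 and 920 CPM and the lymphatic endothelial-like cells at 2872 and 3304 CPM. Blood endothelial-like cells of these pools were lower on day 5, as in WT, at 1988 and 1722 CPM. Their NK or ILC-like cells were close to level, also as in WT, at 1343 and 1379 CPM. Ccr2-/- values of fibroblast-like and dendritic cell-like cells are not reported here. The difference between the genotypes was not tested.

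**Figure D5:**
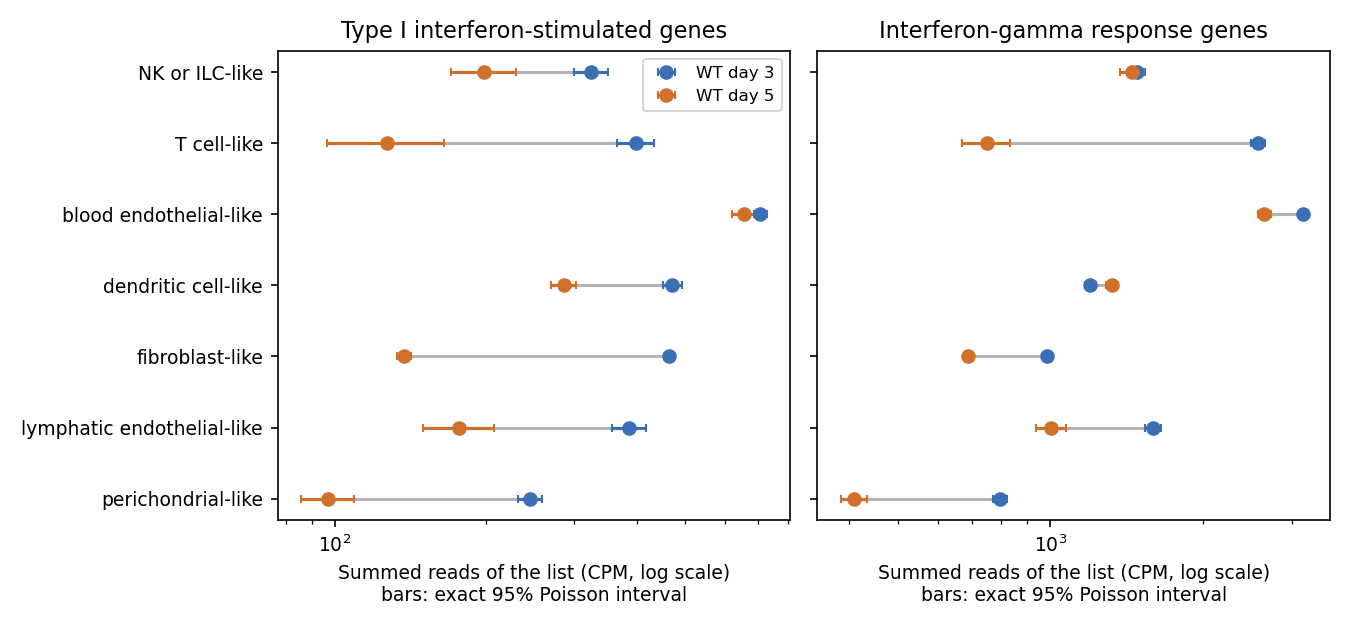
Summed level of the 14 type I interferon-stimulated genes (left) and the 16 interferon-gamma response genes (right) in each WT cell type (CPM, log scale) on day 3 (blue) and day 5 (orange), with exact 95% Poisson intervals as bars. The left panel has day 5 below day 3 in all 7 types, from 464 and 137 CPM in fibroblast-like to 705 and 656 CPM in blood endothelial-like cells, and the right panel has it above in dendritic cell-like cells alone.

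T cell-like cells showed this in named genes. Of 3356 genes tested with 67 and 21 cells, 12% were higher and 11.6% were lower on day 5. Of the 10 interferon-gamma genes tested, 6 were lower and none higher, with a median of -1.08 against 0.12 over all tested genes. Iigp1 was at 285 CPM and 11.2 CPM, and Irf1 at 461 and 100 CPM. Gbp6 and Gbp9, which were named by the rule and are guanylate-binding proteins outside the list, were at 129 CPM and 109 CPM in 18 and 16 of 67 cells on day 3 and had no read in 21 cells on day 5. These 2 levels are at least 19.2-fold and 16.2-fold lower against a floor of 3 reads over the pool.

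Of 6 regulatory and 2 cytotoxic genes tested in T cell-like cells, Foxp3, Ctla4 and Gzmb were lower past the fold and the others were in neither direction. The regulatory list summed to 3168 and 2492 CPM. Foxp3, the factor that defines regulatory T cells, was at 255 CPM in 19 of 67 cells and 93.8 CPM in 4 of 21 cells. Ctla4, an inhibitory receptor of those cells, was at 899 CPM and 382 CPM, and Gzmb, the cytotoxic protease granzyme B, at 847 and 239 CPM. Also named by the rule were Rassf3, Mospd3, Dmtf1, Rprd2, Slk and Pbxip1 as higher. Otud4, Atf1, Pet100 and Olfr986 were named as lower, without a read in the day 5 cells. Of 8 collagens tested, 5 were lower and Col8a1 was higher. Col1a1 was at 2057 and 259 CPM, and 76.6% of its day 3 reads lay in 1 cell. Without the cells of very high read number the Col1a1 ratio was 0.11. H2-Aa, H2-Ab1 and Cd74 were higher, at 30.9 and 444 CPM for H2-Aa, with 97% of its day 5 reads in 1 cell.

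NK or ILC-like cells had 9.47% of 4985 genes higher and 8.53% lower on day 5, with 60 and 29 cells. Their cytotoxic genes leaned lower in the pool sum, at 27031 CPM and 19166 CPM. Gzmb was at 3257 CPM and 1196 CPM, whereas Gzma, granzyme A, was at 17163 and 12342 CPM and stayed within the fold. Klrg1, a receptor of mature or type 2 lymphoid cells, was at 35.1 and 93.3 CPM, Icos, a co-stimulatory receptor, at 27 and 79 CPM, and Ltb, the membrane partner of lymphotoxin, at 19.8 and 199 CPM. Ltb was read in 10 of 60 and 15 of 29 cells. The summed T cell markers in this cluster were at 867 CPM on day 3 and 1803 CPM on day 5. Its NK or ILC markers were at 19981 and 14984 CPM. The part of the mix of cells in these values was not tested.

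Cell division genes of NK or ILC-like cells had no common direction. Mcm5, a subunit of the replicative helicase, was at 246 CPM in 19 of 60 cells and 5.49 CPM in 2 of 29 cells, and Pcna, the polymerase clamp, at 760 and 274 CPM, while Tpx2, a spindle protein, was at 46.3 and 201 CPM. Over the 20 cell division genes, 11 were tested, 3 were lower and 1 was higher. The list summed to 3159 and 2559 CPM, but by the mean over cells it was at 1692 and 1874 CPM, and its median ratio ran from -0.70 to 0.72 over the alternatives. Tap1, the peptide transporter of antigen presentation, was at 140 and 40.6 CPM. The rule also named Frmd8, Dusp6, Fam117b, Togaram1 and Ubr4 as higher and Pptc7, Wipf2, Tmem222, Polr1c and Cdkn2aipnl as lower. Ccl8 was higher, at 65.6 and 1172 CPM, with 97.1% of its day 5 reads in 1 cell and 7152 CPM over the rest of the pool.

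In perichondrial-like cells Iigp1, Gbp3 and Cxcl14 were lower and Cthrc1, Col14a1 and Col15a1 were higher on day 5. Of 6986 genes tested with 84 and 35 cells, 4.47% were higher and 4.8% lower on day 5. Iigp1 was at 160 CPM in 19 of 84 cells and 2.88 CPM in 5 of 35 cells, and Gbp3 at 72.7 and 3.96 CPM. Cxcl14, a chemokine of resting epithelium and stroma, was at 2600 CPM and 498 CPM. Cxcl5 was at 184 and 85.3 CPM, Il6, an inflammatory cytokine, at 294 and 131 CPM, Ccl7, an attractant of monocytes, at 817 and 360 CPM, and Lcn2 at 70.2 and 25.5 CPM. The interferon-gamma list had 3 of 8 tested genes lower, and of 4 monocyte chemoattractants tested 1 was lower and 1, Ccl8, was higher, at 917 and 2990 CPM. Single cells held up to 88.7% of the day 5 reads of Lcn2 and 37.4% of the day 3 reads of Ccl7.

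On the higher side of perichondrial-like cells, 2 of 16 tested collagens were past the fold, as were Cthrc1 and Postn of the fibrosis list. Col14a1, a fibril-associated collagen, was at 98.2 and 251 CPM and Col15a1, a collagen of basement membrane zones, at 7.38 and 38.9 CPM. Cthrc1 was at 44.8 and 217 CPM and Postn, the matricellular protein periostin, at 270 and 545 CPM. In the Ccr2-/- pools Cthrc1 was at 35.7 and 42.1 CPM. The fibroblast markers in these cells were at 36534 CPM on day 3 and 48776 CPM on day 5, and their part in these values was not tested. The genes named by the rule were Cpt2, Gdpd5, Hscb, Zc3h6, Zhx1 and Khdc4 among the higher and Lrrc47, Nek9, U2af1l4, Zfp513 and Rbm14 beside Iigp1 among the lower.

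Dendritic cell-like cells, with 93 and 72 cells, had 2.3% of 5788 genes higher and 2.71% lower on day 5. The 11 MHC class II presentation genes summed to 48550 CPM on day 3 and 53317 CPM on day 5. Rtn1, an endoplasmic reticulum protein, was at 47 CPM in 19 of 93 cells and 6.52 CPM in 6 of 72 cells. Il6 was at 52.4 and 14.4 CPM, Gbp7 at 48.3 and 15.6 CPM and Dnajb1, a heat shock co-chaperone, at 123 and 43.3 CPM. Uba7, the enzyme that activates ISG15, was at 29 and 5.59 CPM. Ptgs2, the inducible prostaglandin synthase, was at 23 and 94 CPM and Igf1, a growth factor, at 9.02 and 31.2 CPM, of which 53% of the day 5 reads lay in 1 cell. Nrm, Calcoco1, Rnf122, Fam234b, Tbcd and Trappc11 were the other higher genes by the rule, and Ncapd3, Olfr1372-ps1, Ftsj3 and Prpf39 the other lower ones. S100a8 and S100a9, abundant neutrophil proteins, were lower at 20.4 and 7.21 CPM and at 25.3 and 10.2 CPM, while over the rest of the pool S100a8 was at 156 and 23.3 CPM.

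In blood endothelial-like cells Car4 and Vcam1 were lower and Icam1 was higher on day 5. With 108 and 38 cells, 3.91% of 6161 genes were higher and 6.9% lower on day 5. Car4, a carbonic anhydrase on the surface of capillaries, was at 762 CPM in 56 of 108 cells and 49.8 CPM in 11 of 38 cells, and kept a log2 ratio between -4.09 and -3.69 under all 8 alternatives, which include the clustering that split off pericytes. Icam1, the leukocyte adhesion ligand, was at 261 and 594 CPM, and Vcam1, its partner for lymphocytes and monocytes, at 85.3 and 34.8 CPM. Sele was at 489 and 643 CPM and Selp at 914 and 470 CPM, both selectins within the fold. Of the 11 adhesion genes, 10 were tested, with 1 higher and 1 lower, and the list summed to 4618 and 4635 CPM.

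Further endothelial genes stood apart. Pltp, a phospholipid transfer protein, was at 112 and 615 CPM, and over the rest of the pool at 126 and 356 CPM. Fscn1, an actin-bundling protein, was at 24 and 123 CPM. Adamts4, a matrix protease, was at 178 and 24.6 CPM, Ptgs2 at 28.9 and 3.75 CPM and Hdc, the enzyme that makes histamine, at 154 and 16.1 CPM. Mcpt4 and Cma1, mast cell proteases, were higher at 6.23 and 57.8 CPM and at 6.23 and 42.3 CPM, with 90.7% and 91.1% of the day 5 reads in 1 cell. Vcpip1, Plekhg5, Ints11 and Ttc8 were the other higher genes by the rule and Dcaf15, Atp13a1, Cdk2 and Cwc25 the other lower ones. Pericyte or smooth muscle markers in the cluster were at 4494 and 3631 CPM. Dendritic cell markers, which include Fscn1, were at 75.9 and 174 CPM, and Mo-Mac markers at 1582 and 2126 CPM. The part of these other cells was not tested.

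Lymphatic endothelial-like cells, with 31 and 22 cells, had 7.02% of 5297 genes higher and 14.8% lower. Their depth differed too, with medians of 35141 and 16174.5 reads, 2922 and 1963.5 genes and 5.16% and 6.89% mitochondrial reads, and its part in these values was not tested. The interferon-gamma list had 8 of 11 tested genes lower, with a median of -1.84 against 0.01 over all tested genes, including Psmb8 at 197 and 43.3 CPM, Gbp7 at 209 and 62 CPM and Gbp4 at 108 and 43.3 CPM. These 8 were past the fold under each of the 8 alternatives. Angpt2, the rival of Angpt1 for TIE2, was at 232 and 49.2 CPM, and Icam1 at 340 and 152 CPM. Of 13 collagens tested, Col18a1 was higher and 6 were lower, such as Col1a1 at 8816 and 225 CPM, with 94.4% of the day 3 reads in 1 cell. Ccl21a, the lymphatic ligand of CCR7, was at 4922 and 14012 CPM by summed reads but had a ratio of 0.42 by the mean over cells. Thoc1, Rfk, Immp1l, Fam162a, Tubb2a and Snhg14 were named higher, and Smpd1, Sh2b1, Il2rg, Ivd, Herc4 and Fbxl17 lower.

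Some cytokines in the day 3 pool rested on very few cells. Il4, the basophil cytokine, had 2422 reads outside Mo-Mac-like cells on day 3 and 242 on day 5. A single fibroblast-like cell held 1512 of the day 3 reads, which left 910. On day 5 the highest cell was basophil-like, with 104 reads. Csf2, the granulocyte-macrophage colony factor, had 523 reads on day 3, of which 490 were in 1 fibroblast-like cell. Areg, an epidermal growth factor receptor ligand, had 719 and 1030 reads, and 877 of the day 5 reads came from 1 basophil-like cell. No caller for doublets was run on these cells.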

How the data were processed

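Ear skin cells of 4 hashtagged pools were measured by TAS-Seq on the BD Rhapsody platform. The deposited gene counts are whole reads per gene and cell, which the authors made with cutadapt and Bowtie2 on build GRCm38.p6 per the submitters' processing notes, with no molecular identifiers. The methods also describe a correction for RNA that spread between wells, and whether the deposited counts carry it is not given in the sources used here. A second deposited table holds hashtag read counts, and 9 of its hashtag columns belong to no pool here and were not used. Of 8953 cell barcodes, 8696 were in the hashtag table, 760 had under 10 hashtag reads and 570 several hashtags; of 7623 assigned cells, 505 failed the limits on mitochondrial reads or genes, leaving 7118.

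Cells were clustered with scanpy 1.11.5 and leidenalg 0.10.2 (2000 variable genes, 30 components, 20 neighbours, resolution 1) and named from marker lists; no doublet caller was run. Reads were summed per type and pool and divided by the total to give CPM. Genes and their limits are as stated in the text. With 1 pool a day no test was made; intervals (scipy 1.17.1) are exact at the 95% level. The steps were tested on simulated data. Genes named had no cell with over 25% of the reads of the higher pool, a level there at least that of the other cells, and were not markers, mitochondrial, ribosomal, Gm or Rik genes; the 12 largest each way were taken in fibroblast-like cells and 6 in the others, by the smaller of both log2 ratios, together with the members of 24 gene lists. Members and lists were chosen with earlier results of these data known. The list sums, promoter search, single-cell shares and comparison of fibroblast clusters were added after seeing the data. Alternatives covered hashtag ratio, clustering, cells of high read number, weighting, scaling, pseudocount and filter. Values of some single list members are not reported here.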

Additional observations from a re-analysis of the deposited data

Results flagged for a closer look

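Opposite moves in WT and Ccr2-/- were looked for only in cell shares and in named or listed genes of fibroblast-like cells. Shares had to be without overlap of the days in both genotypes, and Ccr2-/- log2 ratios at least 1 in size. In 4 such results the WT value moved one way between the days and the Ccr2-/- value the other. Genes of other cell types and list sums were not searched. Some of these also went opposite ways, such as Rtn1 in dendritic cell-like cells, at -2.68 in WT and 4.79 in Ccr2-/-. Each genotype and day was 1 pool, so the difference was not tested. Mo-Mac-like cells were 30.7% of the WT pool on day 3 and 43.4% on day 5, against 5.98% and 3.71% in the Ccr2-/- pools. Neutrophil-like cells were 3.37% and 0.579% in WT, against 18.3% and 33.7% in Ccr2-/-. In fibroblast-like cells Lcn2 had a log2 ratio of day 5 over day 3 of -1.59 in WT and 2.1 in Ccr2-/-, at 66.9 and 21.6 CPM against 85.7 and 370 CPM. Hp had a ratio of -2.49 in WT and 4.24 in Ccr2-/-, at 93.1 and 15.8 CPM against 42.5 and 823 CPM. A large part of its WT day 3 reads lay in 1 cell, and its ratio in the WT cluster led by Scara5 was 0.42. The cluster led by Reg1 was 34.6% and 23.6% of WT fibroblast-like cells, against 67.6% and 69.1% of the Ccr2-/- ones. The part of this in the values of Lcn2 and Hp was not tested.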

How the results depend on the processing

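No paired analysis was possible because each day was 1 pool and no replicate numbers exist. Where a value moved, the cause was not tested unless the setting itself names it. Shares moved beyond their interval in 6 cases and not in 106: blood endothelial-like cells on day 3 were at 5.51% with a hashtag ratio of 10, 5.38% with WT cells clustered alone and 5.44% at resolution 2, and fibroblast-like cells at 17.6% with the ratio of 10 and 23.7% at resolution 2 on day 3, and 28% at resolution 2 on day 5. Genes past the fold with no filter on low values, which tests more genes, were 6247 in NK or ILC-like cells (897 as reported), 7981 in T cell-like (792), 4371 in blood endothelial-like (666), 3050 in dendritic cell-like (290), 489 in fibroblast-like (63), 6273 in lymphatic endothelial-like (1155) and 3855 in perichondrial-like cells (647). By the mean over cells alone they were 1393 in NK or ILC-like, 1574 in blood endothelial-like, 672 in dendritic cell-like, 96 in fibroblast-like, 2281 in lymphatic endothelial-like and 1243 in perichondrial-like cells. With 10 CPM added they were 392 in blood endothelial-like, 122 in dendritic cell-like, 28 in fibroblast-like and 300 in perichondrial-like cells. Fibroblast-like cells had 98 with the hashtag ratio of 10 and 223 in the cluster led by Reg1 alone, an alternative chosen after seeing the data. Under median-of-ratios scaling, the split of higher and lower genes was 365 and 537 in NK or ILC-like cells (472 and 425 as reported), 228 and 593 in T cell-like cells (404 and 388) and 267 and 944 in lymphatic endothelial-like cells (372 and 783), with medians of all tested genes at -0.12, -0.27 and -0.27. Signs turned in the following cases. With the hashtag ratio of 10, NK or ILC-like cells had Ccl8 at -0.89, Ctss at -1.03, H2-Aa at -1.36 and the class II median at -1.36, T cell-like cells Ccl8 at -2.09, blood endothelial-like cells Cxcl10 at 0.24 and Plau at -0.0090, and dendritic cell-like cells S100a9 at 0.17. With WT cells clustered alone, NK or ILC-like cells had Ccl8 at -0.84, H2-Aa at -0.67 and the class II median at -0.39, T cell-like cells Ccl8 at -1.54, Col1a1 at 0.084, Tnc at 0.25, blood endothelial-like cells Cxcl10 at 0.11, and perichondrial-like cells Ccl8 at -0.020, H2-Aa at 0.17 and the class II median at 0.10. The median of the matrix remodelling list in T cell-like cells, log2 of day 5 over day 3, was then at 0.0714. At resolution 2, Cxcl10 was at 0.12 in blood endothelial-like cells. Without cells of very high read number, Rrm2 was at 0.11 in NK or ILC-like cells, T cell-like cells had Ccl8 at -0.26, Col1a1 at 0.11, Mmp2 at 0.081, Tnc at 0.16, the monocyte chemoattractant median at 0.24 and the matrix remodelling median at 0.081, S100a8 was at 0.092 in blood endothelial-like cells and Egln3 at -0.31 in lymphatic endothelial-like cells. In the fibroblast cluster led by Scara5 alone, also added after seeing the data, H2-Aa was at -0.25, H2-Ab1 at -0.61, H2-Eb1 at -0.79, the class II median at -0.69, Hp at 0.42 and Mcoln2 at 0.46, and in the cluster led by Reg1 alone Wnt2 was at -0.28. In the other cases for named genes, 1880 kept their side of the fold and 193 came inside it.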

Other observations

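Ccl8, a monocyte-attracting chemokine, was higher on day 5 and past the fold in 4 WT types outside Mo-Mac-like cells. In blood endothelial-like cells Ccl8 was at 744 and 2906 CPM, with the other cells of the pool at 2513 and 7190 CPM, and in perichondrial-like cells it was at 917 and 2990 CPM, with the others at 2486 and 7246 CPM. Lymphatic endothelial-like cells had it lower past the fold. Blood endothelial-like cells were past the fold in 8 of 8 alternatives, whereas the lowest ratio of Ccl8 was -0.89 in NK or ILC-like, -2.09 in T cell-like and -0.020 in perichondrial-like cells, and 1 cell held 97.1% of the day 5 reads in NK or ILC-like cells. The part of RNA from other cells in these values was not tested.

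The 13 cytotoxic effector genes summed to 567 CPM in dendritic cell-like cells on day 3 and to 63.8 CPM on day 5, and by the mean over cells they were at 349 and 96.3 CPM. The NK or ILC markers in these cells were at 347 and 76.1 CPM, and their part was not tested. In T cell-like cells they summed to 1789 and 569 CPM. Over all WT cells other than Mo-Mac-like cells, S100a8 and S100a9 were at 189 and 26.2 CPM and at 315 and 42.1 CPM, and neutrophil-like cells held 82.7% and 89.8% of their day 3 reads.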
